A study of Mus musculus with 6 samples.

Results

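Extracellular nucleotides are signals that macrophages and dendritic cells read with 2 families of receptors, and the 10 genes described here cover both of them together with the enzymes that end the signal. The set was chosen by name: P2ry12, P2ry13, P2ry14 and P2ry6 (P2Y receptors), P2rx4 and P2rx7 (P2X receptors), Entpd1 and Nt5e (ectonucleotidases), and Adora2a and Adora3 (adenosine receptors). All 10 were among the 26110 genes listed, and all 10 were among the 17812 genes tested, for which the average of the 6 libraries had to reach 10. P2X receptors are ion channels that ATP opens, and P2Y receptors are G protein-coupled receptors for ADP, UDP and related nucleotides or nucleotide sugars. CD39, encoded by Entpd1, removes phosphates from ATP and ADP to leave AMP, and CD73, encoded by Nt5e, turns AMP into adenosine, which acts on the adenosine receptors. P2ry12 is best known from microglia and platelets, and in the gut wall ATP is also a transmitter of enteric neurons.

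The libraries are bulk RNA-seq of MHCIIhi cells sorted from the muscularis externa (ME) of the small bowel of untreated CX3CR1+/GFP mice on a C57BL/6 background, in 3 CX3CR1- and 3 CX3CR1+ libraries. In these mice 1 allele of Cx3cr1 carries GFP, so that every library is heterozygous for Cx3cr1 and the sort separated cells by GFP. The ME of several mice was pooled, no age was given, and whether each library had a pool of its own is not stated, so that p-values measure the spread between these libraries, which may be technical. The sample labels call the cells dendritic cells, whereas the study regards both populations as macrophages. It reports staining of all MHCII+ cells for the macrophage marker IBA-1. By its flow cytometry most CX3CR1- cells carried CD11b, and very few carried CD11c or the dendritic cell marker CD103. Libraries are called replicates 1, 2 and 3 of a population, and values are the authors' normalized counts, which are not divided by gene length.

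The depth was about 5346379 to 17616748 reads per library, and 3 reads were worth 1.39 to 5.36 on the normalized scale. As a check of the gate, Cx3cr1 was at 18.9 to 28.5 in the CX3CR1- and 347 to 380.4 in the CX3CR1+ libraries. All 10 macrophage markers examined were lower in CX3CR1- cells, with a summed level of 10294 to 12174 against 51610 to 57164. Markers of other cells were higher there: 7 of 8 genes of conventional dendritic cells, 8 of 8 of the epithelium, 6 of 6 of fibroblasts and 5 of 6 of B and plasma cells passed the test upward. Of the tested markers of other kinds, 0 of 5 of smooth muscle and 2 of 4 of the endothelium passed upward. The 2 tested markers of mast cells and eosinophils, Kit and Siglecf, passed upward, while 3 of the 6 on that list were not among the genes listed. Of the tested T and NK cell markers, 1 of 3 passed in each direction. The summed epithelial markers were at 15795 to 26921 in CX3CR1- and 23.1 to 50.4 in CX3CR1+ libraries, those of fibroblasts at 4117 to 12168 and 181 to 316, those of B and plasma cells at 1672 to 3867 and 68.7 to 97.3, and those of dendritic cells at 3111 to 3800 and 252 to 294. In bulk RNA, fewer cells of a type and less RNA per cell cannot be told apart, and the part of these other cells in the results that follow was not tested except where a value is given.

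Of the 10 purinergic genes, 4 were lower (P2ry12, P2ry13, P2ry6 and P2rx7) and 3 were higher (P2ry14, Nt5e and Adora2a) in CX3CR1- than in CX3CR1+ cells. To pass the test, a gene needed a difference of 1 or more on the log2 scale in either direction together with an adjusted p no higher than 0.05, taken from limma and adjusted by Benjamini-Hochberg across the whole set of tested genes. The 7 genes that passed stand beside 20.4% of all tested genes, the 4 lower ones beside 8.15% and the 3 higher ones beside 12.2%. Adora2a and Nt5e had CX3CR1+ means of 1.83 and 9.07, under the filter of 10, and were tested only through their CX3CR1- values. With a filter of at least 50, 7 of the 10 genes were tested, and 1 passed upward and 4 downward. Of all 10208 genes then tested, 1232 passed upward and 1181 downward. The values of the populations did not overlap for 9 of the 10 genes, as they did not for 40.0% of all tested genes (20.3% higher and 19.8% lower in CX3CR1- cells). Other scalings of the libraries kept the 3 higher and 4 lower genes as counts, while the split over all genes moved from 2177 higher and 1451 lower to 1716 and 1674 after quantile normalization and to 2521 and 1113 after scaling without mitochondrial genes. For each of those 9, an exact two-sided permutation test gave p = 0.1, below which 3 against 3 libraries cannot go. The median log2 fold change of the 10 genes was -0.91, against -0.0035 for all tested genes.

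**Figure D1:**
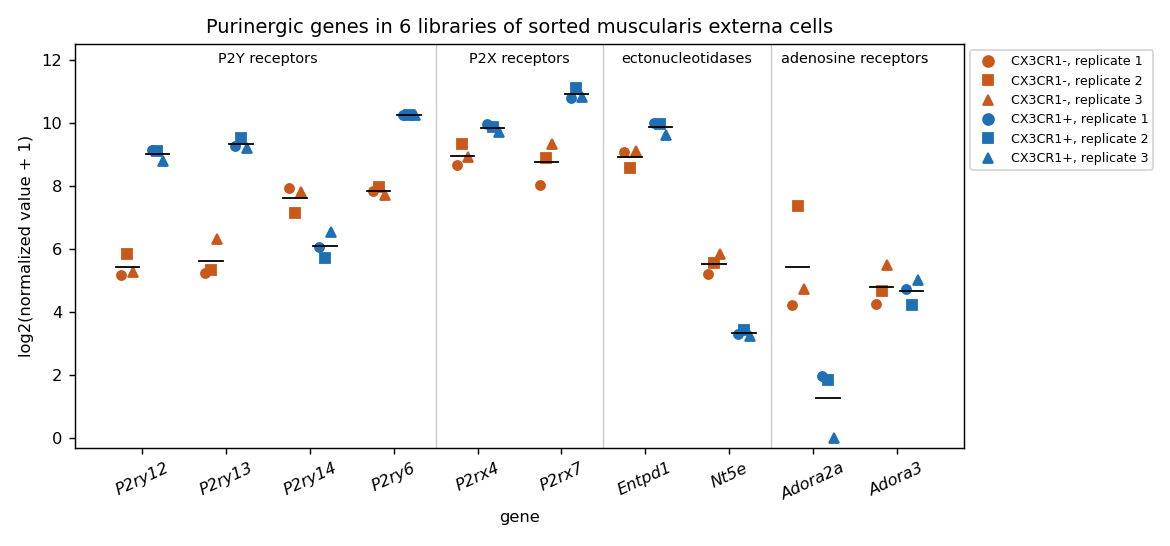
Level of each of the 10 genes, as log2(normalized value + 1), in the 3 CX3CR1- (orange) and 3 CX3CR1+ (blue) libraries, with a symbol for each replicate and a line at the mean of its population. P2ry12, P2ry13, P2ry6, P2rx7, P2rx4 and Entpd1 lay higher in every CX3CR1+ library, P2ry14, Nt5e and Adora2a in every CX3CR1- library, and Adora3 overlapped. P2rx4 and Entpd1 did not reach the fold threshold.

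P2ry12, P2ry13 and P2ry14 lie near one another on the minus strand of mouse chromosome 3, inside the gene Med12l on the plus strand, yet they did not change in the same direction. On GRCm38 (GENCODE release M21), P2ry14 spans 59113855 to 59153618, P2ry13 spans 59207892 to 59210882 and P2ry12 spans 59216272 to 59262871, with 54.3 kb between P2ry14 and P2ry13 and 5.39 kb between P2ry13 and P2ry12. The bases before the start sites of P2ry13 and P2ry14 are shown so that 2 genes of the locus with opposite directions can be read side by side. Those before P2ry12 are not shown, since they lie in annotated exons of Med12l on the other strand. The sequences come from RefSeq (GRCm38.p6), whose promoter table held 8 of the 10 genes, without P2ry6 and Adora2a. Each is written 5′ to 3′ on the minus strand. That of P2ry13 (chr3:59210883-59211132) is the 250 bases up to the RefSeq start site. For P2ry14 the most distal of 4 RefSeq start sites was taken, and the 124 bases shown (chr3:59153619-59153742) are the distal part of that window, since GENCODE counts the part next to the start site as exon. Capitals mark GAGGAA, a core bound by PU.1 and other ETS factors, and TGANTCA, the site of AP-1, on either strand.
P2ry13: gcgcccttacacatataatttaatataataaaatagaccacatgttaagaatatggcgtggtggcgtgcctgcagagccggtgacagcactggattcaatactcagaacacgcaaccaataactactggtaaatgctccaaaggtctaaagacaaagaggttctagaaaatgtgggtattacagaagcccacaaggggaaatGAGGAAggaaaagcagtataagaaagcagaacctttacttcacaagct
P2ry14: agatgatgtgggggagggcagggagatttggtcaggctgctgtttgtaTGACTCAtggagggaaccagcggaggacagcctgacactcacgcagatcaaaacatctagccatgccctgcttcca
In the 250 bases before the start, GAGGAA occurred once before P2ry13, 48 bases from the start, and once before P2ry14, 21 bases from it in the part not shown. The TGANTCA copy of P2ry14 lay 202 bases from the start. The window of P2ry12 held neither, and none of the 3 windows held TATAAA, the TATA box. The windows of the other RefSeq start sites of P2ry14 each held GAGGAA. Those ending at 59131578 and 59131368 overlap, and their GAGGAA is the same copy. The window ending at 59131012 also held TATAAA, 118 bases from its start site. The one ending at 59131578 held TGANTCA, 144 bases from its start site. Over all 32851 promoter windows of this length, 23.3% held GAGGAA, 6.75% TGANTCA and 12.4% TATAAA.

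P2ry12, the ADP receptor P2Y12, reached 35.4, 56.9 and 37.3 in CX3CR1- replicates 1 to 3, against 558, 549.8 and 439.8 in CX3CR1+ replicates 1 to 3. Every CX3CR1+ library lay far above every CX3CR1- library. The means were 43.2 ± 11.89 (SD, n = 3) and 516 ± 66.1 (SD, n = 3), a level 11.94-fold higher in CX3CR1+ cells. On the log2 scale this was -3.57 with a standard error of 0.26 (limma, adjusted p = 1.21e-05). P2ry13, which encodes a second ADP receptor, followed the same pattern. It was at 36.5, 39.3 and 78.8 in CX3CR1- and at 612, 728 and 585 in CX3CR1+ libraries, with CX3CR1- replicate 3 above the other two. The means were 51.5 ± 23.6 (SD, n = 3) and 642 ± 75.7 (SD, n = 3), a difference of -3.69 on the log2 scale (standard error 0.31, adjusted p = 2.24e-05). The decreases of P2ry12 and P2ry13 were the largest of the 10 genes, and their order turned without CX3CR1- replicate 2 (-3.78 and -3.55). No 31-mer of either gene occurred in the transcripts of any other gene. Platelets, which also express P2ry12, were checked by their markers. Itga2b was at 0.71 to 22.0 in CX3CR1- and 3.42 to 10.3 in CX3CR1+ libraries, and Gp9 at 0 to 8.94 and 0 to 2.83. Their summed list was higher in CX3CR1+ libraries (1813 to 2369 against 263 to 502), and both tested platelet markers passed downward in CX3CR1- cells. They were Pf4, which macrophages express as well (log2 fold change -2.55, adjusted p = 5.42e-05), and Ppbp, at 1.04, 3.58 and 3.99 in CX3CR1- and at 27.8, 25.4 and 9.92 in CX3CR1+ libraries (log2 fold change -2.49, adjusted p = 0.0323). The part of platelets in the values of P2ry12 was not tested.

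P2ry14, the receptor for UDP-glucose and other UDP-sugars, went the other way. It was at 243, 140.4 and 223 in CX3CR1- and at 66.4, 51.0 and 92.1 in CX3CR1+ libraries. The lowest CX3CR1- library, replicate 2, still lay above the highest CX3CR1+ library. The means were 202 ± 54.2 (SD, n = 3) and 69.8 ± 20.7 (SD, n = 3), 2.89-fold higher in CX3CR1- cells, or 1.52 on the log2 scale (standard error 0.32, adjusted p = 0.00596). Gpr171, the next receptor gene on that side of the locus, was at 454, 488 and 434 in CX3CR1- and at 32.4, 18.9 and 25.5 in CX3CR1+ libraries, a difference of 4.14 on the log2 scale (standard error 0.27, adjusted p = 6.59e-06). Thus 2 adjacent receptor genes at one end of the locus were higher and 2 at the other end were lower in CX3CR1- cells. The host gene Med12l, a Mediator subunit gene, was at 23.6 to 73.9 in CX3CR1- and 54.3 to 85.6 in CX3CR1+ libraries, which overlapped (log2 fold change -0.78, standard error 0.43, adjusted p = 0.224), and 14.9% of its 31-mers occur in the overlapping Igsf10. The library kit does not mark strand, so that reads from Med12l and from the receptor genes on the other strand cannot be told apart by strand. An exon of P2ry12 overlaps one of Med12l by 9 bases, fewer than a 31-mer, and those of the other receptor genes described here do not overlap Med12l exons.

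**Figure D2:**
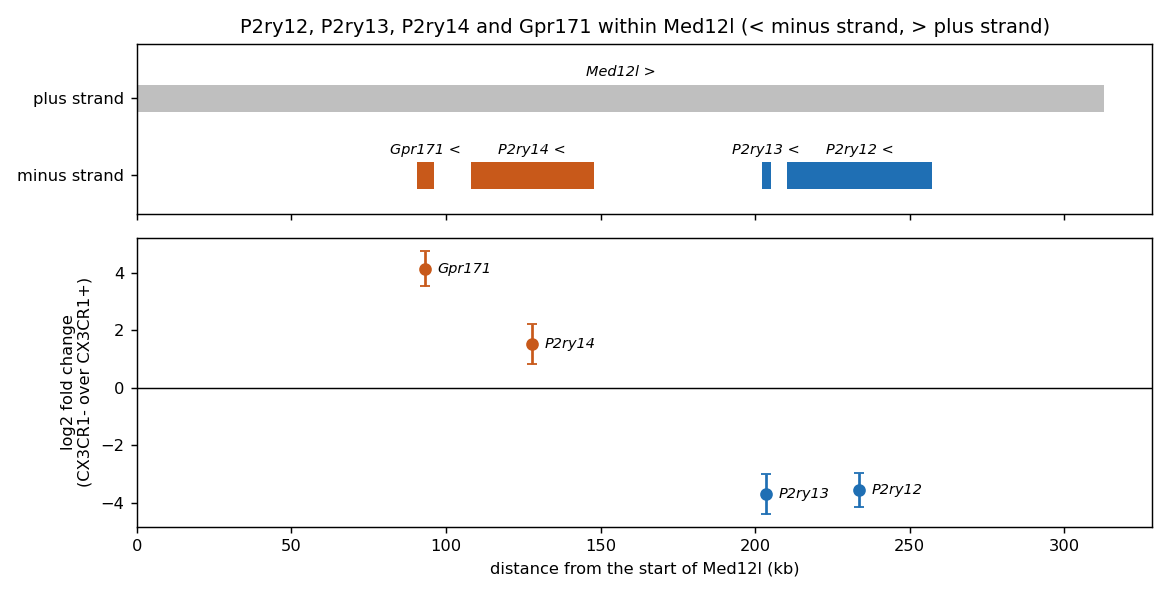
P2ry12, P2ry13, P2ry14 and Gpr171 within Med12l by their distance in kb from its start (top, minus strand genes below the plus strand gene) and the log2 fold change of the tested receptor genes with its 95% confidence interval (bottom). Orange marks genes higher and blue genes lower in CX3CR1- cells, and grey marks Med12l, which did not pass the test. Gpr171 and P2ry14 lie above 0 at 4.14 and 1.52, and P2ry13 and P2ry12 lie below it at -3.69 and -3.57.

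P2ry6, the UDP receptor that microglia are known to use in phagocytosis, had the steadiest values of the set in CX3CR1+ cells. It was at 228, 250 and 209 in CX3CR1- and at 1223, 1219 and 1218 in CX3CR1+ libraries. The populations were widely separated, with means of 229 ± 20.3 (SD, n = 3) and 1220 ± 2.91 (SD, n = 3), and P2ry6 was 5.33-fold higher in CX3CR1+ cells. Its log2 fold change of -2.41 (standard error 0.17) had the smallest adjusted p of the 10 genes, 9.58e-06 (limma). P2ry6 lies on chromosome 7 from 100937630 to 100974649, and its neighbour P2ry2, a receptor for ATP and UTP 21.9 kb away, did not pass. P2ry2 was at 7.24, 44.4 and 19.3 in CX3CR1- and at 35.5, 102 and 60.5 in CX3CR1+ libraries, and the ranges overlapped (log2 fold change -1.64, standard error 0.62, adjusted p = 0.0847).

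Of the 2 P2X receptors, P2rx7 fell in CX3CR1- cells. P2rx7, the channel that high ATP opens on the way to inflammasome activation, was at 258, 475 and 641 in CX3CR1- and at 1747, 2183 and 1822 in CX3CR1+ libraries. The lowest CX3CR1+ library was well above the highest CX3CR1- library, although the CX3CR1- libraries were spread widely. The means were 458 ± 192 (SD, n = 3) and 1917 ± 233 (SD, n = 3), or -2.15 on the log2 scale (standard error 0.29, adjusted p = 4.75e-04). P2rx4, a channel that opens at lower ATP and is found on lysosomes, was at 401, 636 and 483 in CX3CR1- and at 1003, 929 and 843 in CX3CR1+ libraries. These did not overlap either, with means of 506 ± 119 (SD, n = 3) and 925 ± 79.8 (SD, n = 3). Its log2 fold change of -0.89 (standard error 0.20, 95% confidence interval -1.35 to -0.43, adjusted p = 0.009999) did not reach the fold threshold. Without CX3CR1- replicate 2, its highest CX3CR1- library, the log2 fold change of P2rx4 was -1.07 and passed (adjusted p = 0.00340). After quantile normalization it was -0.64 (adjusted p = 0.0572), and with no trend in the variance the adjusted p was 0.0582. The 2 genes are neighbours on chromosome 5, P2rx7 from 122643911 to 122691432 and P2rx4 from 122707544 to 122729738, 16.1 kb apart on the plus strand. Camkk2, next to P2rx4 on the minus strand, did not pass (log2 fold change -0.50, standard error 0.25, adjusted p = 0.179).

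Within a library, the ratio of P2rx7 to P2rx4 differed between the populations. The log2 ratio was -0.64, -0.42 and 0.41 in CX3CR1- and 0.80, 1.23 and 1.11 in CX3CR1+ libraries, without overlap. The mean difference was -1.26, which an exact two-sided permutation test gave p = 0.1, the smallest possible here. By contrast, the log2 ratio of P2ry13 to P2ry12 was 0.04, -0.52 and 1.06 in CX3CR1- and 0.13, 0.40 and 0.41 in CX3CR1+ libraries. These overlapped (difference -0.12, exact permutation p = 0.7), and the sign of the difference changed to 0.23 without CX3CR1- replicate 2. These ratios are not per length, and they compare populations, not the genes with each other.

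The 2 ectonucleotidase genes leaned in opposite directions. Entpd1, on chromosome 19 from 40612366 to 40741602, was at 535, 380 and 555 in CX3CR1- and at 1026, 990.3 and 776 in CX3CR1+ libraries. All CX3CR1- libraries were below all CX3CR1+ libraries, with means of 490.0 ± 96.0 (SD, n = 3) and 931 ± 135 (SD, n = 3). The log2 fold change of -0.93 (standard error 0.21, 95% confidence interval -1.40 to -0.47, adjusted p = 0.00865) stayed under the fold threshold, which it passed without CX3CR1- replicate 1 (-1.01, adjusted p = 0.0170), without CX3CR1- replicate 3 (-1.03, adjusted p = 0.0109) or without CX3CR1+ replicate 3 (-1.06, adjusted p = 0.0157). The adjusted p of Entpd1 missed its own threshold after quantile normalization (-0.67, adjusted p = 0.0546) and with no trend in the variance (adjusted p = 0.0531). Nt5e, on chromosome 9 from 88327197 to 88372092, was far less abundant, at 35.6, 45.9 and 56.0 in CX3CR1- and at 8.90, 9.83 and 8.47 in CX3CR1+ libraries. The CX3CR1+ libraries were all close to one another and below every CX3CR1- library. The means were 45.8 ± 10.2 (SD, n = 3) and 9.07 ± 0.70 (SD, n = 3), 5.06-fold higher in CX3CR1- cells, or 2.20 on the log2 scale (standard error 0.42, adjusted p = 0.00390). Fibroblasts and lymphocytes are known to carry CD73, and the fibroblast and B cell markers given above were higher in CX3CR1- cells as Nt5e was. The summed T and NK cell markers were lower there, at 234 to 305 against 584 to 675. Most of the CX3CR1+ sum was Cd4, at 506, 540 and 539 there and at 113, 101 and 106 in CX3CR1- libraries. Of the 3 tested markers on that list, Cd4 passed downward and Cd8a upward (log2 fold change -2.30 and 2.42), and Cd3d did not pass (0.07). The sum thus does not give the direction of T and NK cells. In CX3CR1- replicates 1 to 3 the fibroblast sums were 7226, 4117 and 12168, and those of B and plasma cells 1672, 3867 and 1839. The part of these cells in the increase of Nt5e was not tested.

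The transcript ratio of the 2 enzymes was also compared within each library. The log2 ratio of Entpd1 to Nt5e was 3.87, 3.02 and 3.29 in CX3CR1- and 6.70, 6.52 and 6.36 in CX3CR1+ libraries. Each CX3CR1+ library had a higher ratio than any CX3CR1- library, with means of 6.52 ± 0.17 (SD, n = 3) and 3.39 ± 0.44 (SD, n = 3). The difference of -3.13 had p = 0.1 in the exact two-sided permutation test, the smallest possible. Entpd1 was lower and Nt5e higher in every CX3CR1- library, so that this separation follows from the values of the 2 genes and is no further evidence. With a pseudocount of 10 in place of 1, which weighs on the low values of Nt5e, the difference was -2.45.

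**Figure D3:**
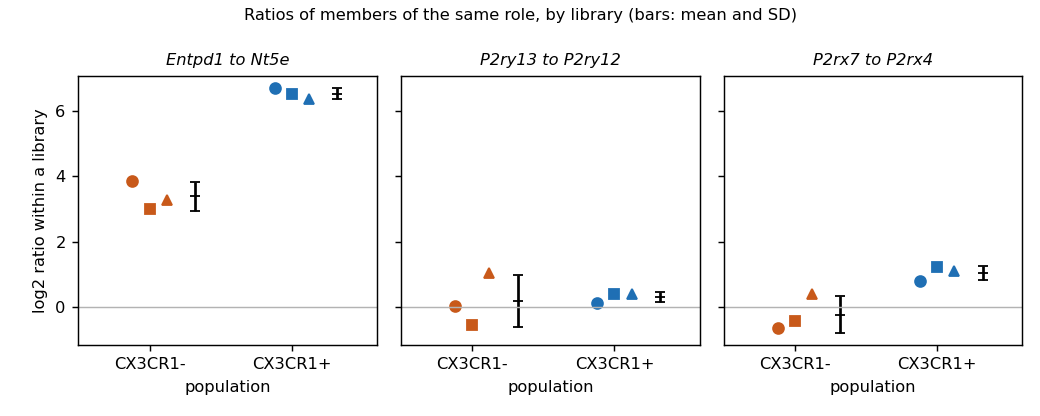
Log2 ratio of 2 genes of the same role within each library, for the 3 CX3CR1- (orange) and 3 CX3CR1+ (blue) libraries, with a symbol for each replicate (circle 1, square 2, triangle 3) and the mean and SD in black. The populations are apart for Entpd1 to Nt5e (3.39 against 6.52) and P2rx7 to P2rx4 (-0.22 against 1.05) and overlap for P2ry13 to P2ry12.

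The adenosine receptor genes were the lowest of the set in CX3CR1+ cells together with Nt5e. Adora2a, the receptor through which adenosine restrains myeloid and T cells, was at 17.5, 163 and 25.5 in CX3CR1- and at 2.92, 2.59 and 0 in CX3CR1+ libraries. All CX3CR1- libraries lay above the CX3CR1+ libraries, but CX3CR1- replicate 2 was far above the other two, and the CX3CR1+ libraries were near the value of 3 reads. The means were 68.8 ± 82.0 (SD, n = 3) and 1.83 ± 1.597 (SD, n = 3). The fitted difference of 4.16 on the log2 scale (standard error 0.93, limma adjusted p = 0.00866) depends on the pseudocount, with 2.23 at a pseudocount of 10. Without CX3CR1- replicate 2 the gene falls under the filter on low values, and without that filter it was 3.199 (adjusted p = 0.0239), an alternative chosen after the data had been seen. The same library had the highest summed B and plasma cell markers, 3867, and dendritic cell markers, 3800, of the 6 libraries, and their part in the value of Adora2a was not tested. Adora2a lies on chromosome 10 from 75316877 to 75334784.

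Adora3, the A3 receptor, was at 18.0, 24.3 and 43.6 in CX3CR1- and at 25.4, 17.8 and 31.3 in CX3CR1+ libraries. The populations overlapped (log2 fold change 0.14, standard error 0.46, 95% confidence interval -0.89 to 1.16, adjusted p = 0.861), and the interval includes a 2-fold difference in the upward direction. Of its 31-mers, 23.9% also occur in other genes, 19.6% in the overlapping Tmigd3, so that its value is uncertain. Tmigd3 itself was at 0 to 4.80 in CX3CR1- and 0 to 10.2 in CX3CR1+ libraries.

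Levels of different genes were compared per kb of the longest coding transcript in GENCODE. In CX3CR1+ cells P2ry6 was the most abundant gene at 627 ± 1.496 (SD, n = 3) per kb, followed by P2rx7 at 388 ± 47.3 and P2rx4 at 342 ± 29.5 per kb, whose ranges overlapped. P2ry13 (254 ± 29.9 per kb), Entpd1 (220.5 ± 32.1 per kb) and P2ry12 (220.1 ± 28.2 per kb) came next and overlapped with one another, and P2ry14, Adora3, Nt5e and Adora2a followed in separate steps from 28.2 down to 0.71 per kb. In CX3CR1- cells P2rx4 stood first at 187 ± 44.1 (SD, n = 3) per kb, above the range of P2ry6 at 118 ± 10.4 per kb. Below it, the ranges of neighbours in the order overlapped from P2ry6 through Entpd1, P2rx7, P2ry14, Adora2a, P2ry13, P2ry12 and Adora3 to Nt5e at 11.5 ± 2.55 per kb. With the median length of the coding transcripts instead, P2rx7 led in CX3CR1+ cells (1037 ± 126 per kb), whereas in CX3CR1- cells P2rx4 (338 ± 79.5 per kb) stood above Entpd1 (298 ± 58.4 per kb) with overlapping ranges.

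Other genes of purinergic signalling were taken from a list of 43 symbols, of which 33 entries were tested (Pnp has 2). Of these, 12 passed upward and 4 downward in CX3CR1- cells, with a median log2 fold change of 0.89, beside 12.2% upward, 8.15% downward and a median of -0.0035 for all tested genes. The filter is on the mean of all libraries, so that a gene low in CX3CR1+ cells can be tested through its CX3CR1- values alone. This held for Alpi, P2rx6, Adora1, Entpd2, Adora2b and Enpp3, which passed upward with CX3CR1+ means under 10. With a mean of at least 50, 7 of 23 tested entries passed upward and 4 downward. Among the receptors, P2ry1, another ADP receptor, was at 145, 126 and 145 in CX3CR1- and at 17.7, 21.5 and 32.5 in CX3CR1+ libraries. Its direction (log2 fold change 2.53, standard error 0.33, adjusted p = 3.37e-04) was opposite to that of P2ry12 and P2ry13. P2ry1 lies on the same chromosome, 1684 kb beyond Med12l, and 22.5% of its 31-mers occur in the overlapping Gm37035. The other adenosine receptors passed upward as Adora2a did. Adora1 was at 117, 23.6 and 61.3 against 4.02, 2.95 and 0 (log2 fold change 4.39, adjusted p = 0.00301), and Adora2b was at 23.0, 59.0 and 57.8 against 5.09, 4.92 and 7.08 (log2 fold change 2.73, adjusted p = 0.00424), with no overlap in either case. P2rx6 was low in both, at 20.5 ± 6.12 (SD, n = 3) and 2.06 ± 0.57 (SD, n = 3), and passed upward (log2 fold change 2.79, adjusted p = 0.0131).

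Among 8 tested genes of other ectoenzymes, 4 passed upward and 2 downward. Alpi, the alkaline phosphatase of the enterocyte brush border, was at 261, 252 and 89.7 in CX3CR1- libraries and listed at 0 in all CX3CR1+ libraries. Against the value of 3 reads, as a mean over the CX3CR1+ libraries, it was at least 74.4-fold higher. Entpd2, an ATPase that enteric glia are known to carry, was at 46.2 ± 17.4 (SD, n = 3) and 4.78 ± 3.11 (SD, n = 3), or 3.15 apart on the log2 scale (adjusted p = 0.00421). The summed markers of enteric neurons and glia were at 138 to 463 in CX3CR1- and 83.5 to 91.6 in CX3CR1+ libraries. The epithelial and glial markers thus moved in the direction of these enzymes, and their part was not tested. Enpp3 also passed upward (log2 fold change 3.54, adjusted p = 0.00129). Cd38, which breaks down NAD outside the cell, was lower in CX3CR1- cells, at 185, 206 and 449 against 1289, 1337 and 1451. CX3CR1- replicate 3 was the highest of its population and still well below the CX3CR1+ range (log2 fold change -2.39, standard error 0.30, adjusted p = 3.01e-04).

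Of the 7 tested entries for adenosine and inosine turnover, 3 passed upward. Ada, which turns adenosine into inosine, had the largest change, at 2337, 1487 and 659 in CX3CR1- and at 127, 58.4 and 74.5 in CX3CR1+ libraries. The CX3CR1- libraries differed widely among themselves, yet none reached down to the CX3CR1+ range, and Ada was 17.2-fold higher in the mean (log2 fold change 3.99, standard error 0.44, adjusted p = 1.20e-04). Enterocytes of the small bowel are known for high Ada. The part of the epithelial markers given above, which moved with Ada, was not tested. The others were Adk, the kinase that returns adenosine to AMP (log2 fold change 1.06, adjusted p = 0.0353), and Ampd2, an AMP deaminase (log2 fold change 1.32, adjusted p = 0.0234).

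Of 4 tested nucleoside transporters, Slc29a3, the transporter of the lysosome, passed downward. It was at 652, 1026 and 547 in CX3CR1- and at 2022, 1791 and 1722 in CX3CR1+ libraries, without overlap (log2 fold change -1.36, adjusted p = 0.00170). Of 4 genes of ATP release, Gja1, which encodes connexin 43, passed upward (log2 fold change 1.48, adjusted p = 0.01002), whereas Panx1, the pannexin channel, did not pass (log2 fold change 1.48, adjusted p = 0.0652). Of the 4 intracellular ENTPD enzymes, Entpd7 passed downward (log2 fold change -1.17, adjusted p = 0.0104). Counts of the whole list moved with the scaling of the libraries, to 9 upward and 4 downward after quantile normalization and 15 upward and 3 downward after scaling to the total without mitochondrial genes.

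**Figure D4:**
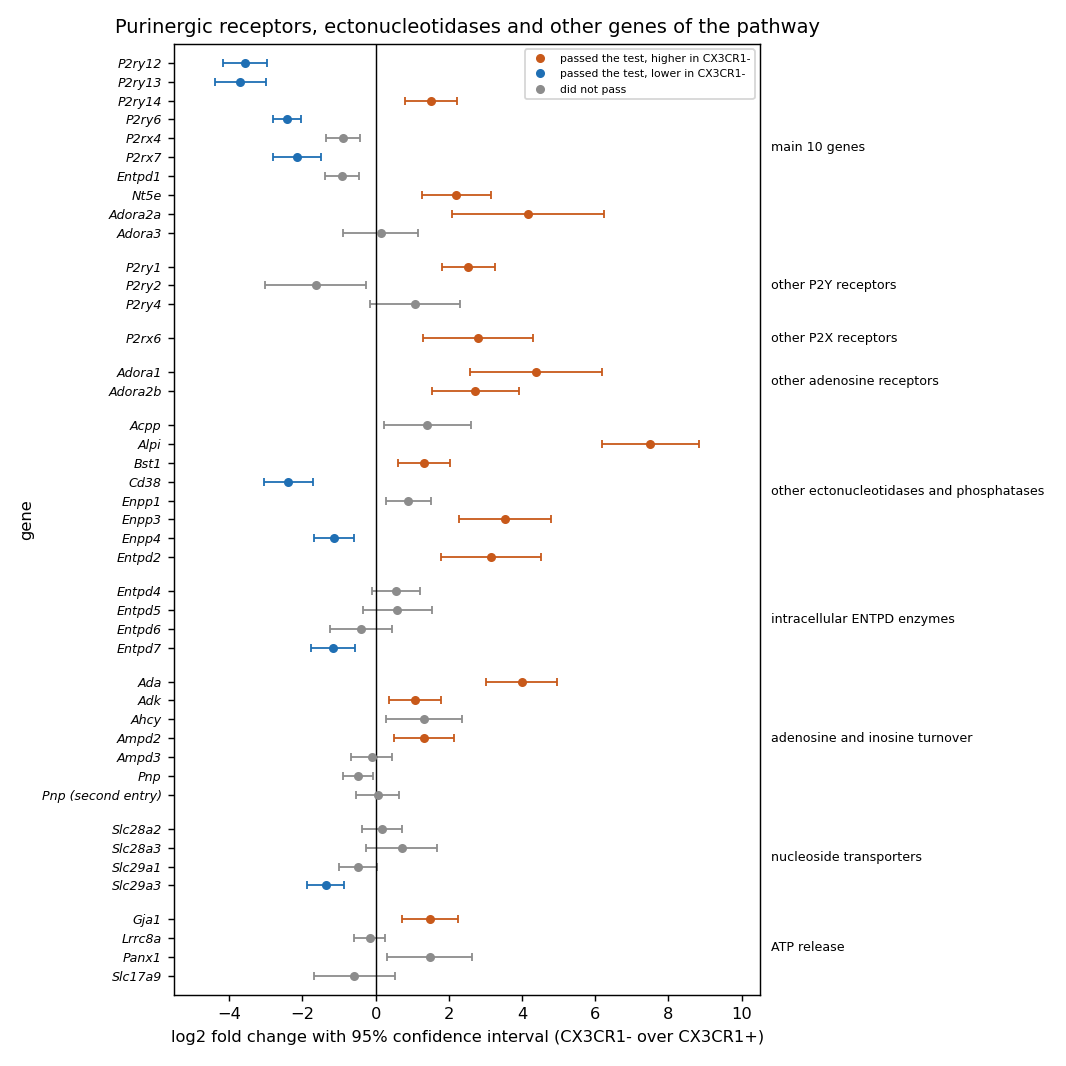
Log2 fold change between CX3CR1- and CX3CR1+ cells with its 95% confidence interval, for the 10 genes at the top and the 33 tested entries of the other lists below, on a linear axis. Orange genes passed the test upward (3 and 12), blue genes downward (4 and 4) and grey genes did not pass. The point of Alpi rests on CX3CR1+ libraries listed at 0 and depends on the pseudocount.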

How the data were processed

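The authors pseudoaligned reads to a mouse transcriptome (mm10) with Kallisto, imported the counts through tximport and scaled them by DESeq2. What they deposited is a signal per gene that is normalized between libraries and not by length. A count test was not run, because 42.5 to 44.6% of the values above 0 were whole multiples (within 0.01) of a library's smallest step, which also gave the approximate depth. Libraries were grouped by their titles.

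Genes with a mean of at least 10 were tested on log2(value + 1) with limma 3.58.1 in R 4.3.3 (intensity trend, two-sided, Benjamini-Hochberg adjustment over all tested genes). The script was tested on simulated data. Log2 fold changes are on this scale and understate those of low genes. Positions, lengths and shared 31-mers came from GENCODE release M21 (GRCm38), a later release than the authors used.

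The 10 genes, the lists and the tests were chosen with earlier results of these data known. Named are the 10 genes, genes of the pathway lists (those past the threshold, up to 4 a list by adjusted p), their genomic neighbours, gate checks, markers, and the 3 genes nearest in Euclidean distance to the most changed gene in each direction. Panx1, Ppbp, Gp9, Itga2b and the untested pathway genes were named after their values were seen. Alternatives were other pseudocounts (0.5 and 10), filters (none and 50) and scalings, no trend, library weights, a block of adjacent library numbers and leaving out each library.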

Additional observations from a re-analysis of the deposited data

How the results depend on the processing

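The number of the 10 genes past the threshold was 7 in most alternatives, 5 of the 7 tested with a mean of at least 50, and 7 to 8 with a library left out. P2ry12, P2ry13, P2ry14, P2ry6 and P2rx7 passed in all 16 alternatives, Nt5e in all 15 and Adora2a in all 14 in which they were tested. Over all genes, the median difference moved to -0.15 after quantile normalization and to 0.17 after scaling without mitochondrial genes, which took 47.5 to 54.9% of the CX3CR1- and 18.1 to 21.2% of the CX3CR1+ totals. The log2 fold change of Adora3 turned to -0.21 after quantile normalization and ranged from -0.20 to 0.41 with a library left out. The difference in the log2 ratio of P2ry13 to P2ry12 ranged from -0.55 to 0.23, and the cause of these reversals was not tested. The difference of Entpd1 to Nt5e was -2.45 with a pseudocount of 10, and ranged from -3.37 to -2.94 with a library left out. The other pathway entries, 33 with the filter of 10, gave 11 to 19 past the threshold over the alternatives. The number tested moved with the filter, from 23 with a mean of at least 50 (11 passed) to 42 without a filter (19 passed). A mean of at least 50 left 2413 genes past the threshold among all genes, against 3628 (2771 to 3869 with a library left out), because fewer genes were tested (10208).

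The library numbers fall into adjacent pairs, but the labels name no pairing. The deviations of such pairs correlated at 0.10, 0.04 and 0.01, so that they were not treated as paired. With this replicate block 7 of the 10 genes, 19 pathway entries and 3610 of all genes passed. Genes near the value of 3 reads, such as Adora2a in CX3CR1+ cells, are limited by depth.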

Other observations

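Some genes of the pathway were too low to be tested, and the 4 given here were chosen after their values had been seen. Entpd8, an ectonucleotidase of the liver and intestine, was at 16.5, 12.97 and 9.30 in CX3CR1- and at 0 in all CX3CR1+ libraries. Slc28a1, a concentrating nucleoside transporter of epithelia, was at 29.2, 5.36 and 7.98 and at 0 in all CX3CR1+ libraries. Alpl, the tissue-nonspecific alkaline phosphatase, was at 7.21, 27.6 and 11.8 in CX3CR1- and at 0, 0.52 and 0 in CX3CR1+ libraries. P2rx1 was at 0, 0 and 13.99 in CX3CR1- and at 10.75, 13.98 and 5.82 in CX3CR1+ libraries.

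Over the 6 libraries, the genes with the pattern nearest to that of P2ry13, by the Euclidean distance of log2 values centred on their mean, were Ms4a7 (distance 0.29, log2 fold change -3.78), Vcam1 (0.43, -3.77) and Tlr2 (0.53, -3.40). The nearest to Adora2a were Zfp423 (distance 1.21, log2 fold change 4.74), Bcl11a (1.43, 4.12) and 5730559C18Rik (1.54, 3.51).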
